A study of Danio rerio with 4 samples.

Results

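The immunoproteasome genes of the zebrafish were compared with their constitutive counterparts in whole uhrf1 mutant and wildtype larvae. Probe sets were taken by symbol, wherever the array annotation gave exactly 1 gene symbol beginning with psme1, psme2, psme3 or any of psmb5 to psmb13. This gave 15 probe sets of 12 genes, out of 15502 probe sets and 8793 named genes. Of the 12 genes, 7 were classed as inducible subunits (psme1, psme2, psmb8a, psmb9a, psmb10, psmb12 and psmb13a). Another 4 were classed as constitutive ones (psme3, psmb5, psmb6 and psmb7), and each gene of both classes had 1 probe set. The classes are those of the lists used here, and induction by interferon was not tested. The remaining 4 probe sets belong to psme3ip1, a gene for a protein that binds PSME3, which the prefix also matched and which is no subunit. No probe set with a single gene symbol carried a psmb11 name. The family was chosen by its mutant against wildtype values on these same arrays, which were known when it was proposed. All changes and calls of its members are therefore descriptions and not independent evidence.

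The proteasome degrades ubiquitin-tagged proteins inside a barrel, the 20S core, whose beta1, beta2 and beta5 subunits hold the cutting sites. Interferons induce alternative versions of these subunits, which replace the constitutive ones in newly assembled cores and form the immunoproteasome, known for making peptides that fit MHC class I molecules. Immune cells are known to carry it without induction. The PA28 activator, a ring that opens the core, exists as an interferon-inducible form made of PSME1 and PSME2 and as a nuclear form made of PSME3.

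The data are 2 arrays of larvae labelled as uhrf1 mutants (replicates 1 and 2), set against 2 arrays of wildtype larvae (replicates 1 and 3), all at 120 hours post fertilization. One protocol line gives days in place of hours. UHRF1 recruits the maintenance DNA methyltransferase to newly copied DNA. The growth protocol names offspring of heterozygous uhrf1hi272 carriers for most of the study, and also a line in which the liver-specific fabp10 promoter drives a human UHRF1-GFP fusion, without saying which fish went onto the arrays. The labels are silent on whether larvae were pooled and on whether replicates are separate clutches, so the errors and p-values measure the spread between these samples alone, and this spread may be technical. Each error (SE) and interval also draws on the spread of all probe sets, with 4.04 prior beside 2 residual degrees of freedom. It is therefore not the gene's own spread.

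The arrays were of the 1-colour Affymetrix type and carry intensities made by the authors with RMA, a method that corrects background, equalises the distributions of the arrays and combines the probes of a probe set. Array medians lay between 29.4 and 31.5 intensity units, and probe sets with a mean under 12.7 made up the dimmest 25%. The brighter uhrf1 probe set read 41.1 and 26.3 in mutants against 47.4 and 41.5 in wildtype larvae, and the other read 8.97 to 9.91 on all 4 arrays. No source used here places these probes relative to the mutation, so the readings check nothing about the labels. The array's EGFP control probe set read 52.3 and 65.3 in mutants and 58.7 and 57.1 in wildtype larvae, with overlapping groups. Of the whole-larva markers, 11 were measured, from liver, pancreas, intestine, muscle, eye, skin, cartilage and neurons, and none was dim on all arrays. In 8 of the 11 both mutant arrays lay below both wildtype arrays, against 29.4% of the 8793 genes, each read by its brightest probe set. The pancreatic trypsin gene prss1 and the intestinal gene fabp2 fell, with log2 changes of -3.02 ± 0.17 and -2.53 ± 0.35 (SE), while 0.967% of genes were called lower. The fabp2 call was lost with a pseudocount of 16, at -2.46. The liver gene fabp10a and the lens gene crybb1 did not pass, at -0.91 ± 0.33 and -0.80 ± 0.17 (SE, log2), though crybb1 was called with an intensity-dependent prior. The 18 hybridisation controls averaged 0.49 lower on the mutant arrays (log2), so every change below is relative to the bulk of the array, whose median change was -0.04, or 0.45 after scaling on those controls. In samples of whole larvae, fewer cells of a type and less RNA per cell cannot be told apart.

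The inducible subunits were higher in mutants while the changes of the constitutive ones lay near the bulk of the array. Of the 7 inducible probe sets, 6 rose by limma's test at an adjusted p under 0.05 over all probe sets, against 0.845% of the 15502 probe sets called higher and 1.50% called in either direction. The exception, psmb9a, had the widest spread between the mutant arrays. The median log2 change of the 7 was 2.28, with a range of 1.51 to 3.05, beside -0.04 for all probe sets. None of the 4 constitutive probe sets was called in either direction, and their median was 0.03, with a range of -0.24 to 0.11. In all 7 inducible probe sets both mutant arrays lay above both wildtype arrays, an order that 14.9% of all probe sets showed. A log2 change is the mutant mean of log2(intensity + 1) minus the wildtype mean, and folds are ratios of group means of the deposited intensities. In wildtype larvae psmb8a, psmb9a, psmb12 and psmb13a averaged 15.7, 17.2, 18.9 and 15.9. These means lay below the lowest array median, 29.4, and not far above 12.7, the bound of the dimmest probe sets. The sizes of these changes and folds therefore depend on the background level.

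**Figure D1:**
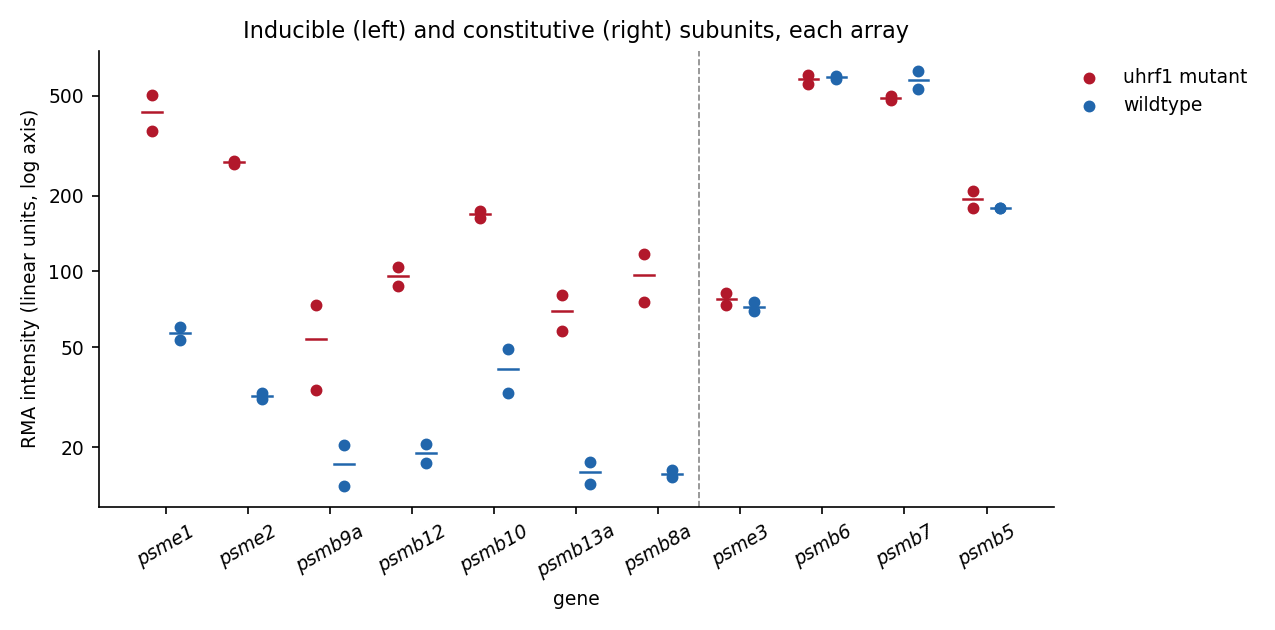
RMA intensity (log axis) of the 7 inducible subunit genes, left of the dashed line, and of 4 constitutive counterparts, right of it. Each point is 1 array (uhrf1 mutant left, wildtype right, 2 each) and each bar a group mean. The groups are apart for each of the 7 inducible genes and overlap for psme3, psmb6 and psmb5.

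The activator genes showed the largest changes of the family. psme2, which encodes the beta chain of inducible PA28, read 268 and 274 intensity units in mutants against 31.1 and 32.8 in wildtype larvae. The arrays of each group were close together and the groups far apart. Its change was 3.05 ± 0.13 (SE, log2), an 8.49-fold ratio, the 21st highest of 15502 probe sets. psme1, encoding the alpha chain, read 362 and 501 in mutants and 53.5 and 60.2 in wildtype larvae, a change of 2.89 ± 0.19 (SE, log2) or 7.60-fold. It stood next in the ranking, at place 22. The gene of the nuclear activator, psme3, read 73.9 and 82.0 in mutants and 75.6 and 69.5 in wildtype larvae. Its groups overlapped, and the change was 0.10 with a 95% interval of -0.24 to 0.44 (log2).

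For psme3ip1, whose product interacts with PSME3, the 4 probe sets read 10.03 to 59.1 on average in mutants and 10.9 to 63.4 in wildtype larvae. Their log2 changes ran from -0.54 to -0.09, and none was called. In 2 of them both mutant arrays lay below both wildtype arrays, against 26.3% of all probe sets.

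At the beta1 site, whose constitutive form cuts after acidic residues, the array measured psmb6 as the constitutive subunit. It also measured psmb9a and psmb12, which were classed as inducible. RefSeq lists beta1 as an older name of psmb6, beta1ia and lmp2 as older names of psmb9a, and beta1t as one of psmb12. psmb12 read 87.5 and 104 in mutants against 20.6 and 17.3 in wildtype larvae, with well separated groups. It rose by 2.28 ± 0.16 (SE, log2), or 5.07-fold. psmb9a read 33.9 and 73.8 in mutants and 20.4 and 14.0 in wildtype larvae. Both mutant arrays were above both wildtype arrays, but mutant replicate 2 read 2.17 times as much as mutant replicate 1. Its change of 1.51 ± 0.37 (SE, log2) was not called. Without mutant replicate 1 the change was 2.06, which was called, and without mutant replicate 2 it was 0.96, which was not. In both fits the wildtype pair alone supplied the gene's own spread, and the lone mutant array was assumed to vary like it. psmb6 read 601 and 558 in mutants and 600.2 and 584 in wildtype larvae, with overlapping groups and a change of -0.03 (95% interval -0.35 to 0.29, log2).

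The beta2 site cuts after basic residues. Its constitutive subunit is encoded by psmb7, and RefSeq lists beta2i as an older name of psmb10 and beta2ta as one of psmb13a. psmb10 read 163 and 175 in mutants against 49.0 and 32.8 in wildtype larvae. Here the wildtype arrays differed more from each other than the mutant arrays did, and the groups stayed apart, with a rise of 2.05 ± 0.21 (SE, log2) or 4.13-fold. psmb13a read 58.0 and 81.0 in mutants and 17.6 and 14.3 in wildtype larvae, and rose by 2.05 ± 0.20 (SE, log2), or 4.36-fold. The psmb13a groups were well apart too. psmb7 was the constitutive gene with the lowest change. It read 479 and 497 in mutants against 623 and 532 in wildtype larvae, so both mutant arrays were below both wildtype arrays. The change was -0.24 with a 95% interval of -0.59 to 0.12 (log2), and it was not called.

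The beta5 site cuts after hydrophobic residues, which are common ends of MHC class I peptides. Its inducible subunit gene psmb8a read 75.8 and 118 in mutants against 15.2 and 16.2 in wildtype larvae. The wildtype arrays agreed closely, while mutant replicate 2 was 1.55 times mutant replicate 1. The rise was 2.52 ± 0.22 (SE, log2), or 6.16-fold. With a pseudocount of 16 the psmb8a change was 1.81 (log2) and was not called. The constitutive gene psmb5 read 178 and 210 in mutants and 179 and 179 in wildtype larvae, and the lower mutant array lay just below both wildtype arrays. Its change was 0.11 with a 95% interval of -0.24 to 0.47 (log2).

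**Figure D2:**
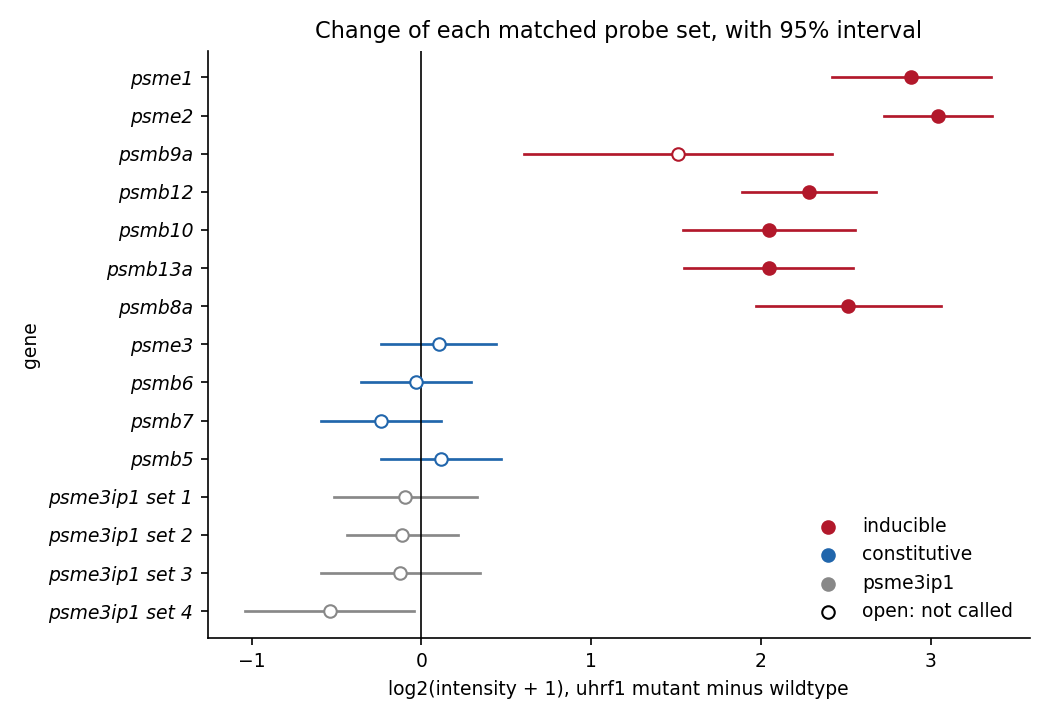
Log2 change of each of the 15 matched probe sets (uhrf1 mutant minus wildtype, 2 arrays each) with the 95% interval of limma, filled where called at an adjusted p under 0.05. The inducible genes lie between 1.51 and 3.05 and the constitutive ones between -0.24 and 0.11.

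Ordered by change, the inducible genes ran psme2, psme1, psmb8a, psmb12, psmb10, psmb13a and psmb9a. The 95% intervals of neighbours in this order overlapped at each step. The interval of psme2, 2.73 to 3.36, lay above those of psmb12, 1.89 to 2.68, and of the 3 genes after it. Differences between members were not tested. With a pseudocount of 16 psme1 passed psme2, at 2.60 against 2.58, and psmb10 passed psmb12, at 1.72 against 1.68 (log2). Mutant replicate 2 read above mutant replicate 1 in 8571 of the 15502 probe sets. It did so for all 7 inducible genes, by 1.02 to 2.17 times, and for 3 of the 4 constitutive ones, by 0.93 to 1.17 times over the 4. Among the inducible genes the lowest of these ratios belonged to psme2 and the highest to psmb9a.

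A ratio of subunits within an array cancels any factor that scales the whole array, so the contrast does not depend on the hybridisation controls. The mean log2 signal of the 7 inducible probe sets minus that of the 4 constitutive ones, set to 0 at the wildtype mean, was 2.17 and 2.52 on the mutant arrays and 0.04 and -0.04 on the wildtype arrays. Matched by site, psmb8a over psmb5 was higher by 2.40 in mutants (log2), the lower mutant array standing 2.16 above the higher wildtype array. At the beta2 site, psmb10 and psmb13a over psmb7 were both higher by 2.28 to 2.29 (log2). At the beta1 site, psmb12 over psmb6 was higher by 2.32, and psmb9a over psmb6 by 1.54 with a gap of 0.70 between the nearest arrays of the groups (log2). For the activators, psme2 over psme3 was higher by 2.95 and psme1 over psme3 by 2.79 (log2). Probe sets differ in how strongly they bind, so these ratios show unequal change and not how much of each subunit was present.

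**Figure D3:**
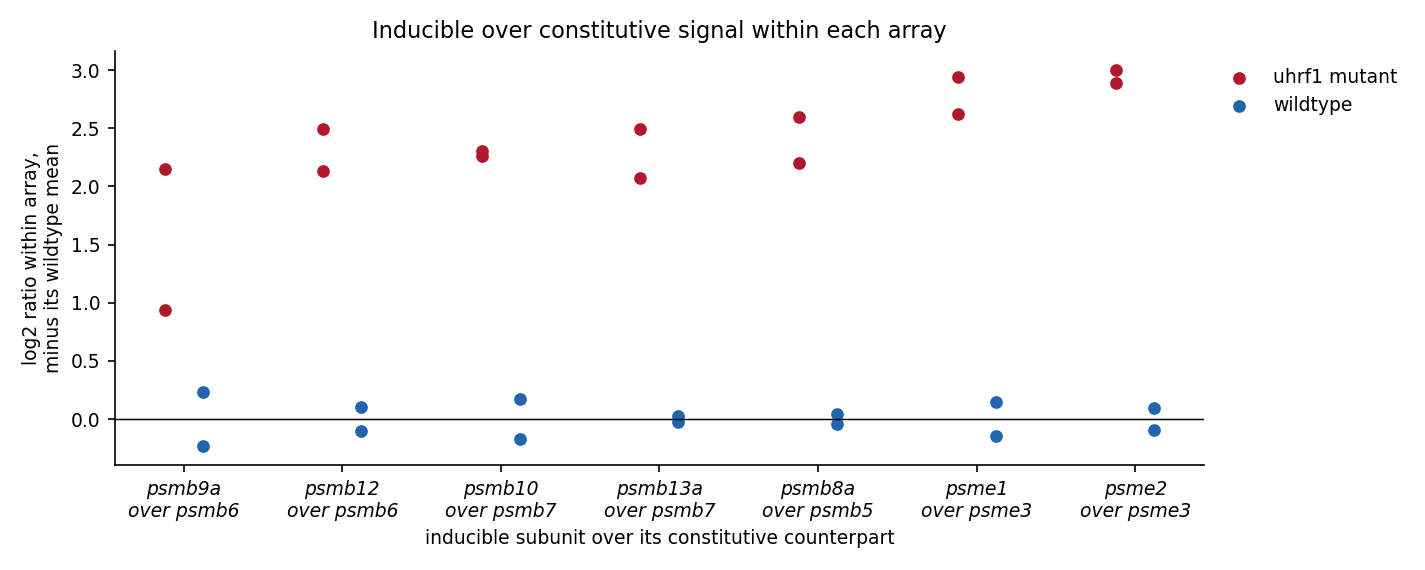
Log2 ratio of each inducible gene over its constitutive counterpart within each array, minus the wildtype mean of that ratio. Points are arrays, uhrf1 mutant left and wildtype right. All mutant points lie above all wildtype points, and the smallest gap, 0.70, is that of psmb9a over psmb6.

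The alternative scaling and a larger pseudocount changed some of these calls. With a pseudocount of 16, which damps changes of dim probe sets, 3 inducible genes were called (psme1, psme2 and psmb12) while all 7 changes stayed between 1.02 and 2.60 (log2). That pseudocount called 42 of the 15502 probe sets higher. With arrays scaled on the hybridisation controls all 7 were called, and so were the constitutive genes psmb5 and psme3, at 0.60 and 0.59, beside a median of 0.45 for all probe sets. This scaling called 5223 of the 15502 probe sets.

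**Figure D4:**
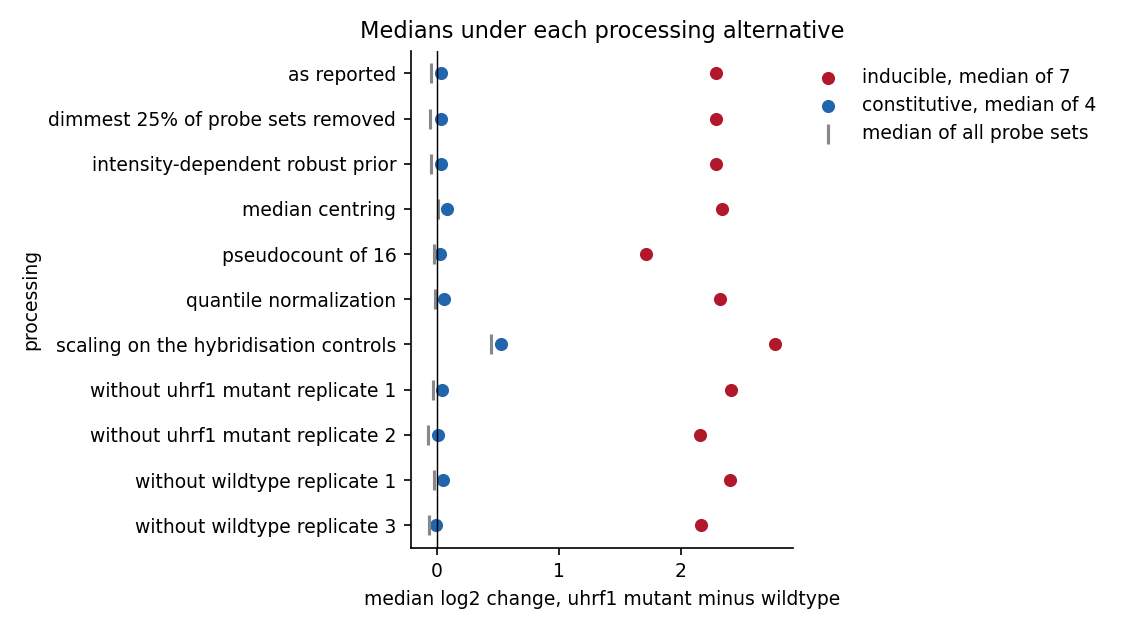
Median log2 change (uhrf1 mutant minus wildtype) of the 7 inducible and the 4 constitutive probe sets and of all probe sets, as reported and under each alternative processing. The inducible median runs from 1.72, with a pseudocount of 16, to 2.77, scaled on the hybridisation controls, and lies above the constitutive one throughout.

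Most other proteasome genes stood above 0. All but psmd10, at 1.70, changed by less than psmb9a, the lowest of the inducible subunits, at 1.51 (log2). Of 12 further 20S core genes, none passed the test, where 1.03% of all genes were called higher and 0.967% lower. They were psma genes for the outer rings and psmb1 to psmb4 for the noncatalytic beta subunits. All 12 changes were above 0, from 0.10 to 0.94 with a median of 0.37 (log2), whereas 38.7% of all genes were above 0 and their median was -0.06. In 10 of the 12 both mutant arrays lay above both wildtype arrays, an order shown by 15.2% of all genes. With arrays scaled on the hybridisation controls all 12 were called, as were 5223 of the 15502 probe sets. The largest was that of psma6l, an alpha-type subunit gene, at 0.94 ± 0.17, followed by psmb1 at 0.58 ± 0.14 (SE, log2). psma6l read 52.5 and 68.2 in mutants against 31.1 and 30.3 in wildtype larvae, and it was called once the dimmest probe sets were left out or an intensity-dependent prior was used. Of 5 genes for assembly factors and the inhibitor psmf1, none passed, beside the same shares of all genes called. This list leaves out psmd10, a chaperone of 19S assembly that is counted with the 19S particle below. The assembly chaperones psmg1 and psmg3 were at 0.50 ± 0.21 and -0.35 ± 0.16 (SE, log2).

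In the 19S regulatory particle, which recognises and unfolds substrates, 1 of 23 measured genes rose and none fell, where 1.03% of all genes were called higher. The changes of 19 of the 23 were above 0, against 38.7% of all genes, with a median of 0.10 (log2). In 9 both mutant arrays lay above both wildtype arrays, against 15.2% of all genes. The exception was psmd10, which encodes gankyrin, a chaperone of 19S assembly. It read 319 and 416 in mutants against 94.5 and 132 in wildtype larvae, with separate groups, and rose by 1.70 ± 0.22 (SE, log2). The call was lost without mutant replicate 2, at 1.51, and with a pseudocount of 16. The next largest changes were those of psmd11b and psmd12, at 0.47 and 0.35 (log2), and neither passed.

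Genes of MHC class I peptide loading lay above 0 in 6 of 6 cases, against 38.7% of all genes, and 3 of them rose, against 1.03% of all genes. b2m, the class I light chain, read 640 and 662 in mutants and 16.4 and 15.7 in wildtype larvae. tapbp.1, a tapasin gene for the bridge between the peptide transporter and class I molecules, read 189 and 302 in mutants against 38.0 and 43.5 in wildtype larvae and rose by 2.53 ± 0.24 (SE, log2). erap1b, an aminopeptidase gene named for trimming peptides to their final length, rose by 1.27 ± 0.15 (SE, log2), a call lost without mutant replicate 2, at 1.14. With a pseudocount of 16, tapbp.1 and erap1b were not called. The chaperones pdia3 and canx, which serve glycoproteins in general, were at 0.22 and 0.21 (log2) and did not pass.

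Of 12 measured genes of interferon, JAK-STAT and stress signalling to the proteasome, 5 rose and none fell, beside 1.03% of all genes called higher and 0.967% called lower. Their median was 0.85 (log2), and in 8 of the 12 both mutant arrays lay above both wildtype arrays, against 15.2% of all genes. irf1b is named for the interferon regulatory factor IRF1, which is known in mammals to switch on immunoproteasome genes. It read 996 and 957 in mutants and 39.6 and 27.1 in wildtype larvae. irf7 rose by 3.44 ± 0.13 and the feedback inhibitors socs3a and socs3b by 2.71 ± 0.16 and 1.97 ± 0.14 (SE, log2). stat3 rose by 0.84 ± 0.13 (SE, log2), a call that was lost whichever array was left out. irf9, a partner of STAT proteins, read 39.3 and 68.4 in mutants against 18.3 and 11.9 in wildtype larvae. Its change of 1.75 ± 0.31 (SE, log2) did not pass, nor did that of jak1, at 0.86. The stress gene nfe2l2a was at 0.014, and jak2a and jak2b were at 0.032 and 0.014 (log2). irf1a, the other irf1 gene of the list, was at -0.005 (log2) and read 11.0 to 11.9 on all arrays, within the dimmest 25%. For nfe2l2a, jak2a, jak2b and irf1a the groups overlapped and the changes were not called. Scaled on the hybridisation controls, irf1a was called at 0.48, beside a median of 0.45 for all probe sets. irf9 was called once the dimmest probe sets were left out, with an intensity-dependent prior, without mutant replicate 1, at 2.14, without wildtype replicate 1, at 2.04, and under scaling on the hybridisation controls, which also called jak1. The lists of this and the preceding paragraphs were written with earlier results of these arrays known.

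**Figure D5:**
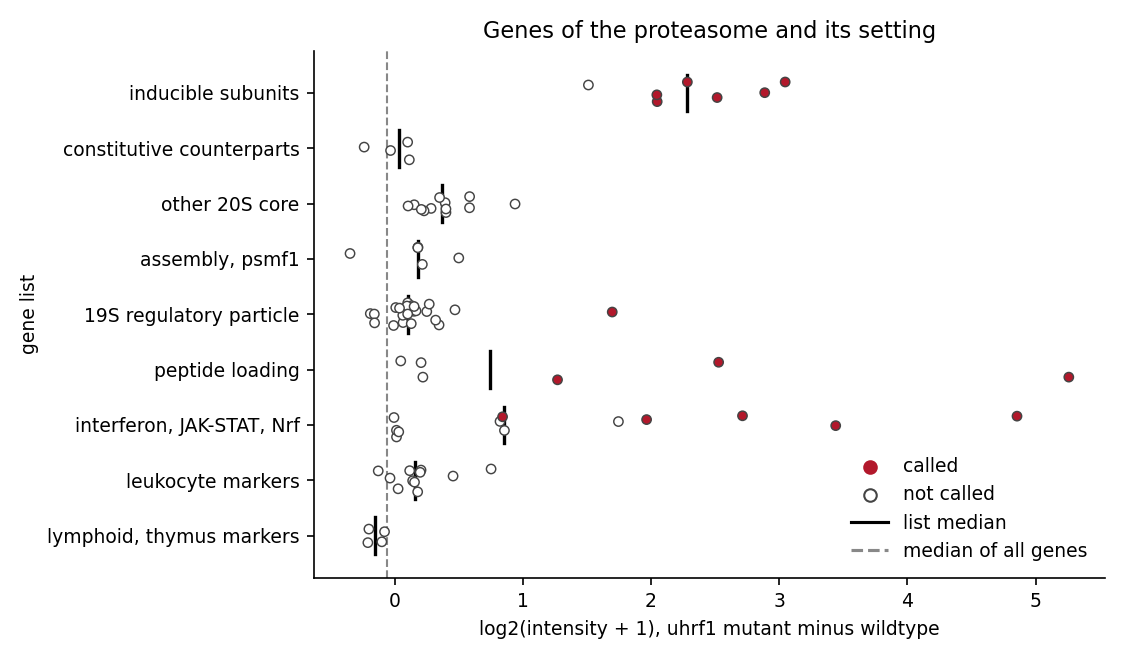
Log2 change (uhrf1 mutant minus wildtype, 2 arrays each) of each measured gene, by list, red where called at an adjusted p under 0.05. Black bars are list medians (2.28 for the inducible subunits, 0.37 for the other 20S genes, 0.10 for the 19S particle), and the dashed line is the median of all genes, -0.06.

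Of the 7 inducible genes, 4 are neighbours in the MHC class I region. In the gene order of the RefSeq assembly GRCz12tu, used here for names and order only, psmb13a, psmb8a, psmb12 and psmb9a follow each other directly. In that annotation the gene models of psmb13a and psmb8a overlap each other and both of the others. Those of psmb12 and psmb9a do not overlap each other, and that of psmb13a also overlaps tap2a. Probes within overlapping models or between close paralogs can pick up each other's transcripts. None of the 11 subunit probe sets carried the suffix by which the manufacturer marks probes shared with other genes. Among the 10 protein-coding genes on each side of psmb9a, 12 besides these subunits were measured. Only tapbp.1 rose and none fell, beside 1.03% of all genes called higher and 0.967% called lower. The median change of the 12 was -0.02 (log2). Of the 12, mhc1uka read 10.2 to 11.7 and rxrba 9.81 to 12.6, under the bound of 12.7 for the dimmest probe sets. A change in such dim probe sets could go unseen. The nearby genes tap2a, mhc1uba and tapbp.2 were not measured. brd2a, the nearest measured gene on the far side, was at 0.28 ± 0.16 and hsd17b8 next to it at 0.42 ± 0.38 (SE, log2).

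Markers of immune cells were read beside the subunits. Of 11 measured leukocyte markers, none passed in either direction, where 1.03% of all genes were called higher and 0.967% lower. Their changes ran from -0.13 to 0.75 with a median of 0.15 (log2), and 9 of the 11 were above 0, against 38.7% of all genes. In 6 of the 11 both mutant arrays lay above both wildtype arrays, against 15.2% of all genes. Scaled on the hybridisation controls, 8 of the 11 were called higher, beside 5127 of the 15502 probe sets. Their summed signal was 471 and 570 in mutants and 470 and 343 in wildtype larvae, so the lower mutant sum stood only just above the higher wildtype sum. The larger changes were those of lyz, the lysozyme gene of neutrophils and macrophages, and of cxcr4b, at 0.75 ± 0.31 and 0.46 ± 0.17 (SE, log2). lyz read 210 and 268 in mutants against 194 and 102 in wildtype larvae, the largest single part of the summed signal on every array. Without wildtype replicate 1, the higher wildtype array, it was called at 1.21, and there the mutant pair alone supplied its own spread. The macrophage genes marco and csf1ra stayed in the dimmest 25% on all arrays, and ptprc, the pan-leukocyte gene, read 10.6 to 13.5. Of 4 measured lymphoid and thymus markers none passed, beside the same shares of all genes, and none was above 0, against 38.7% of all genes. The largest changes were those of ikzf1 and rag1, at -0.21 and -0.20 (log2). Both were dim: ikzf1 stayed in the dimmest 25% on all arrays, and rag1 read 10.5 to 14.6. The summed signal of the 4 markers was 50.3 and 63.1 in mutants and 66.3 and 58.2 in wildtype larvae. The part of immune cell numbers in the change of the inducible subunits was not tested.

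The genes most like the inducible subunits were sought by the distance between log2 profiles over the 4 arrays, each centred on its own mean. The smallest Euclidean distances to the mean profile of the 7 inducible probe sets were those of zgc:174863 (0.24), glipr2l (0.36), tapbp.1 (0.37), nfkb2 (0.37) and txnb (0.42). nfkb2, an NF-kappaB subunit gene, read 166 and 192 in mutants against 49.2 and 34.4 in wildtype larvae. txnb, a thioredoxin gene, read 677 and 954 in mutants and 212 and 208 in wildtype larvae. For comparison, psmb12 was at 0.14, psmb9a at 0.98 and the 4 constitutive genes at 2.23 to 2.59 from the same profile, which the inducible genes themselves define. With 4 arrays in 2 groups, such likeness mainly reflects the size of the change and the spread within groups.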

How the data were processed

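The deposited table holds intensities per probe set for 4 arrays (2 uhrf1 mutant, 2 wildtype) deposited by the authors after RMA, as the submitters' processing notes record. No source used here states the RMA version or settings, and the values carry no detection calls. The number of arrays limits the precision. Of 15617 probe sets, 115 array controls were left out. Platform annotation named 1 gene for 10795 of the rest, several for 135 and none for 4572, and symbols were updated through the Entrez ID, which changed none of the 15 members' symbols.

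The log2 of each intensity plus 1 was fitted across all probe sets with limma 3.58.1 in R 4.3.3 (2 residual and 4.04 prior degrees of freedom), with p-values two-sided and Benjamini-Hochberg adjusted over 15502 probe sets. A call means an adjusted p under 0.05. An exact permutation test of 2 against 2 arrays cannot go below 0.33 and was not used. Outside the subunits, a gene with several probe sets was represented by the brightest. The fit was tested on simulated data. The members and lists were chosen with earlier results of these data known. Named genes were all members, the 5 genes of nearest profile and, per list, up to 6 called genes and the 2 largest changes not called. Outside this rule, uhrf1, nfe2l2a, jak2a, jak2b, irf1a, marco, csf1ra, ptprc and some genes near psmb9a were named too. Alternatives were other normalizations, a pseudocount of 16, removal of the dimmest 25%, another prior, other thresholds and leaving out each array. Sequences were not used here.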

Additional observations from a re-analysis of the deposited data

How the results depend on the processing

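The difference between inducible and constitutive changes was 2.35 (log2) as reported, 2.17 to 2.52 with any 1 array left out, and 1.85 with a pseudocount of 16. The inducible median of 2.28 became 1.72 with a pseudocount of 16 and 2.77 scaled on the hybridisation controls, and inducible calls numbered 3 with that pseudocount and 6 or 7 with any 1 array left out. psmb8a, psmb10 and psmb13a, at 1.81, 1.72 and 1.41, were those no longer called with that pseudocount, and psmb9a was called at 2.00 scaled on the controls. The constitutive median was 0.087 with median centring and 0.52 scaled on the controls, where 2 were called. Scaled on the controls, psmb6 stood at 0.46, psmb7 at 0.25 and 3 psme3ip1 probe sets at 0.40, 0.38 and 0.37, all above 0. psmb6 was also at 0.020 with median centring and 0.0060 with quantile normalization. With 1 array left out psmb5 ranged from -0.0010 to 0.23, psmb6 from -0.086 to 0.022, and 2 psme3ip1 probe sets from -0.26 to 0.073 and from -0.35 to 0.0996. Over the array, 233 probe sets were called, 394 with the intensity-dependent robust prior, 80 with a pseudocount of 16, 86 at an adjusted p under 0.01, 419 at 0.10, 154 to 310 with 1 array left out (154 without mutant replicate 1) and 5223 scaled on the controls, where 98.2% were higher, against 56.2% as reported. The cause was not tested. The other 53 values for summaries and 130 for single probe sets were held to be unchanged. Single probe sets kept direction and side of the threshold, and medians and the difference moved by less than the spread between arrays. Counts of calls were held unchanged within a set factor. Among these were 320 over the array without the dimmest 25%, and 7 inducible calls scaled on the controls. Removing the dimmest 25% left out 1 psme3ip1 probe set. No paired analysis was possible because the labels record no pairing of mutant with wildtype arrays.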
